A study of Mus musculus with 16 samples.

Results

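The genes described here encode the inhibitory ligands Nogo (Rtn4) and oligodendrocyte myelin glycoprotein (Omg) and the receptor complex that binds them. The complex holds the Nogo receptor Rtn4r and the co-receptors Lingo1, Ngfr (p75NTR) and Tnfrsf19 (Troy). Rtn4rl1 and Rtn4rl2 are homologues of Rtn4r. The 8 genes were chosen by name for their role in this complex or as homologues of its receptor, and not for their values. Earlier results of these data were known when they were chosen, so the choice was not blind. All 8 are among the 24411 genes in the deposited tables. RNA was sequenced from a 5 mm section of spinal cord of 16 female C57BL/6J mice. In the SCI + Atorvastatin group (n = 7), mice were injured at 12 wk of age by lateral compression with a 0.25 mm gap at T8-9 and were injected intraperitoneally each day with atorvastatin, a cholesterol-lowering statin, at 10 mg/kg, from 2 wk post-injury for 4 wk. The SCI + Vehicle group (n = 7) had the same injury and was given the carrier of DMSO, PEG 400, Tween 80 and saline by itself over the same period. The Uninjured Control group (n = 2) had neither injury nor treatment. Per the study's methods its cords were taken at a younger age than those of the injured mice, so age and injury cannot be told apart in any comparison with it. Both comparisons with uninjured tissue use the same 2 mice, so their results are not independent of each other. The injured cords were taken at 6 wk post-injury per the labels.

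In the adult spinal cord, Nogo and Omg sit on oligodendrocytes and myelin, and Omg and Nogo are also made by neurons. Together with myelin-associated glycoprotein (Mag) they bind the Nogo receptor, which is anchored to the neuronal membrane by lipid and has no part inside the cell. The signal is passed on by Lingo1 together with Ngfr or Tnfrsf19 to the GTPase RhoA and its kinase ROCK, and growth cones collapse. The pathway is known for limiting regrowth of injured axons in the central nervous system.

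Libraries held 14823292 to 25579826 counts on genes. Neuron and oligodendrocyte markers were found in every mouse. The 2 Uninjured Control libraries stood apart from the SCI libraries, with a count on 12732 and 12356 genes against 16399 to 19338 in the SCI mice. Of 3245 genes that averaged 200 to 500 counts over the injured mice, control replicate 1 lacked any count for 13.9% and control replicate 2 for 17.6%, while no SCI mouse lacked one for more than 0.247%. These genes were picked by their mean in the SCI mice, which by itself favours few zeros there. Genes with lower levels in uninjured cord can be among them, and genes picked by their counts in the control mice were not examined. The 6 liver markers summed to 6783 TPM in control replicate 1, 1132 TPM in control replicate 2 and to at most 16.0 TPM in any SCI mouse. The part of either in the differences from the Uninjured Control group was not tested, so for the 8 genes each control mouse is given by itself.

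In GRCm38 (GENCODE M21), Rtn4 lies on chromosome 11 (29692947 to 29744331, plus strand, 10 annotated transcripts), and its gene-level value pools the long Nogo-A with the shorter Nogo-B and Nogo-C. Lingo1 lies on chromosome 9 (56618475 to 56796468, minus strand, 8 annotated transcripts). Omg lies on chromosome 11 (79500982 to 79504084, minus strand) wholly inside an intron of Nf1, which is read from the opposite strand, and none of the 2228 exonic bases of Omg is shared with an exon of Nf1. Rtn4 shares 1284 of its 6991 exonic bases with Eml6 on the opposite strand, at its 3′ end. The library kit keeps strand, but the strand setting of the counting is not given in the sources used here, so reads of Rtn4 and Eml6 in that stretch may not have been told apart.

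The start regions of Rtn4 and Lingo1 are shown because Rtn4 was the most abundant of the 8 genes and Lingo1 was the gene called against the Uninjured Control group, and because both have more than 1 start site, whose transcripts the gene-level values add together. The windows are RefSeq promoter sequences on GRCm38.p6, cut to the bases that lie before the start and before any GENCODE exon of the same gene. GC boxes (GGGCGG on either strand) are in capitals. The first Lingo1 start has chr9:56796469-56796560 on the minus strand, the second chr9:56635649-56635898 on the minus strand. The first Rtn4 start has chr11:29692648-29692897 and the internal one chr11:29718313-29718562, both on the plus strand.
Lingo1 first start: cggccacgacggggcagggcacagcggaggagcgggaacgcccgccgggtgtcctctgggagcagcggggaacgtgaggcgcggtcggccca
Lingo1 second start: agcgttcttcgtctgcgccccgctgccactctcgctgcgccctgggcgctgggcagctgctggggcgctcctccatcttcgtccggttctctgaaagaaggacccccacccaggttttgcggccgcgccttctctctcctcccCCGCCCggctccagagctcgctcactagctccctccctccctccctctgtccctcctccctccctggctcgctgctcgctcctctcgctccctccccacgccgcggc
Rtn4 first start: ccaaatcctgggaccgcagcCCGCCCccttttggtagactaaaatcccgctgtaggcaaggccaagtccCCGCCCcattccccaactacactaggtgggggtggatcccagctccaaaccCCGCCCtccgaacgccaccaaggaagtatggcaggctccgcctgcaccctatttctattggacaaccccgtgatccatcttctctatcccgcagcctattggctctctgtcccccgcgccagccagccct
Rtn4 internal start: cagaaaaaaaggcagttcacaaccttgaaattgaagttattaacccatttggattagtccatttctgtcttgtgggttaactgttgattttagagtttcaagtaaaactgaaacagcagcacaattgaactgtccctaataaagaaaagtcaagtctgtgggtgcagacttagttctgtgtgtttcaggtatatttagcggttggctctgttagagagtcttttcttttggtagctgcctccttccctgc
The first Rtn4 window holds 3 GC boxes, 12 CpG and 61.2% GC, while the internal one holds 0, 1 and 39.2%. Another Rtn4 window (chr11:29693524-29693773) holds 1, 31 and 76.8%. It is not printed, since too few of its bases came before an exon of the gene. Of 10 windows of 250 bases found for 6 of the genes, 8 held a GC box, which is in 32.7% of all 32851 such windows. A TATA box (TATAAA), the sterol regulatory element TCACNCCAC and TTCAGCACC, the left part of RE1, were in none of the 10 and in 12.4%, 1.05% and 0.301% of all windows, searched on both strands. Omg and Rtn4rl1 had no window in the table.

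Rtn4 was the most abundant of the 8 genes in every mouse and Rtn4rl2 was close to 0. TPM, which are normalized by the authors for gene length and depth, are used wherever levels of different genes are compared. Over the SCI mice, the mean TPM fell from Rtn4 (305 ± 22.1, SD, n = 7, with atorvastatin and 307 ± 28.1, n = 7, with vehicle) to Omg (57.0 ± 7.63 and 59.8 ± 10.7), with no overlap between these ranges. Lingo1 (29.1 ± 7.10 and 30.4 ± 6.70) and Tnfrsf19 (28.5 ± 2.01 and 29.4 ± 4.23) followed and overlapped with each other: Lingo1 was the higher of the pair in 3 of 7 mice in each group. Rtn4rl1 came next (15.1 ± 2.98 and 16.5 ± 4.85) and was below Tnfrsf19 in all 14 SCI mice. Ngfr (6.84 ± 1.83 and 7.65 ± 5.69) and Rtn4r (5.83 ± 2.41 and 5.88 ± 2.70) overlapped, and Ngfr was the higher in 4 and 3 of 7 mice. In the SCI mice Lingo1 and Tnfrsf19 thus had higher mean levels than the ligand-binding receptors Rtn4r and Rtn4rl1. In Uninjured Control replicate 2 Tnfrsf19 (15.2 TPM) was below Rtn4rl1 (21.5 TPM) and Rtn4r (22.3 TPM).

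**Figure D1:**
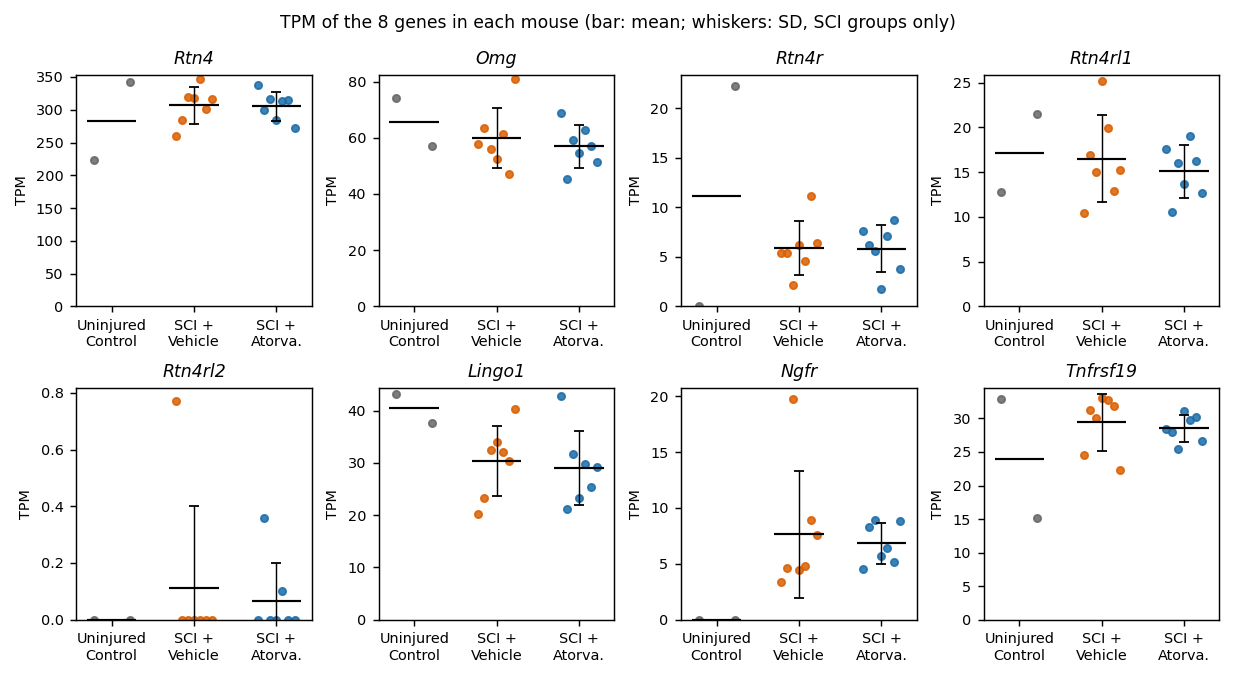
TPM (vertical axis, linear from 0) of the 8 genes in each of the 16 mice, 1 panel per gene, by group, with 1 point per mouse, the group mean as a bar and the SD as whiskers for the SCI groups (n = 7 each). The SCI groups overlap for every gene, the 2 Uninjured Control mice lie on either side of the SCI mice for Rtn4r (0 and 22.31), and both are at 0 for Ngfr.

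Differences between groups were tested on the counts with edgeR (quasi-likelihood test after TMM normalization, Benjamini-Hochberg adjustment over the 16091 genes whose mean TPM passed 1 in any condition). Of the 8 genes, 7 passed this filter and Rtn4rl2 did not. Against the Uninjured Control group the limits for a call were an adjusted p below 0.05 and a log2 fold change past 0.322 in either direction. With vehicle, edgeR called 0 of the 7 genes as differing from Uninjured Control, against 29.4% of all genes tested. At an unadjusted p below 0.05 there was 1 of the 7, Lingo1, against 41% of all genes. Other tools called 2 (DESeq2, Lingo1 and Ngfr), 1 (limma on log2(TPM + 1), Ngfr) and 0 (limma voom with group weights). Of all 16091 genes these tools called 6000, 4452 and 133, so limma voom called few genes of any kind. In SCI + Atorvastatin vs. Uninjured Control, 1 of the 7 genes was called, Lingo1, which was lower, against 38.9% of all genes called and 14% called lower. At an unadjusted p below 0.05 there were 3 (Lingo1, Omg and Ngfr), against 47.8% of all genes. Their median log2 fold change was -0.08 and -0.22 in these comparisons, and that of all genes tested was 0.17 and 0.21. In bulk tissue, fewer cells of a type and less RNA per cell cannot be told apart.

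Rtn4 was not called in either comparison with uninjured cord. It was at 223.5 and 342.2 TPM in Uninjured Control replicates 1 and 2. In the SCI + Vehicle group its lowest, median and highest values were 260.1, 316.2 and 347.5 TPM, and in the SCI + Atorvastatin group 272.0, 313.2 and 338.0 TPM. All SCI mice but 1 thus lay between the control mice. The log2 fold change was -0.08 in both SCI + Vehicle vs. Uninjured Control (SE 0.127, edgeR adjusted p = 0.679, 95% interval -0.36 to 0.20) and SCI + Atorvastatin vs. Uninjured Control (SE 0.123, adjusted p = 0.641). On the TPM scale with limma the sign turned (0.14 in both comparisons), where the median of all genes moved to 0.49 and 0.52, so on either scale Rtn4 was below the median gene. The counts that made up 1 TPM of Rtn4 differed little between mice, by -0.03 to 0.03 on the log2 scale among SCI mice and by 0.06 and 0.08 in the control mice, so its effective length, which depends on the mix of transcripts, was near the same.

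Omg, a lipid-anchored glycoprotein of oligodendrocytes and neurons, was lower in TMM-normalized CPM (counts scaled to the library size) than in both control mice in 7 of 7 SCI + Atorvastatin mice and 6 of 7 SCI + Vehicle mice. Its CPM was 65.9 and 55.9 in the control mice, 38.9, 45.1 and 66.8 (lowest, median and highest) with vehicle and 37.2, 44.9 and 53.6 with atorvastatin. The exception was SCI + Vehicle replicate 7, which was above both controls. In TPM only 4 and 3 of 7 mice were below both controls (74.0 and 57.2 TPM), and limma on log2(TPM + 1) gave smaller differences of -0.20 and -0.14 (adjusted p = 0.351 and 0.613; atorvastatin, then vehicle). The log2 fold change was -0.37 (SE 0.201, edgeR adjusted p = 0.194) in SCI + Vehicle vs. Uninjured Control and -0.43 (SE 0.166, adjusted p = 0.0650) in SCI + Atorvastatin vs. Uninjured Control, neither called. Without SCI + Vehicle replicate 7 the first was -0.47 and called (edgeR adjusted p = 0.0426). The second was called without SCI + Atorvastatin replicate 5 (-0.47, edgeR adjusted p = 0.0496) and in DESeq2 (-0.46, adjusted p = 0.0285). It was also called in edgeR with DESeq2 size factors (-0.46, adjusted p = 0.0459). Without Uninjured Control replicate 2 the second was -0.55. With any 1 mouse left out, the first spanned -0.49 to -0.25 and the second -0.55 to -0.30. Over all alternatives the sign did not turn in either comparison. Nf1, the gene around Omg, was not called, with log2 fold changes of -0.08 and -0.09.

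The Nogo receptor itself differed widely between the control mice. Rtn4r had 0 counts (replicate 1) and 410 counts (replicate 2), or 0 and 22.3 TPM. All 14 SCI mice lay between them, with 53, 87 and 176 counts (lowest, median and highest) in the SCI + Vehicle group and 54, 82 and 150 in the SCI + Atorvastatin group. A count of 0 in replicate 1 allows a level of up to 0.148 CPM, for counting error only. The log2 fold changes were -0.98 (SE 1.19, edgeR adjusted p = 0.574) and -1.09 (SE 1.18, adjusted p = 0.505). Their sign depended on the control mouse: without replicate 1 they were -1.98 and -2.09, and without replicate 2 Rtn4r was above a control at 0. No direction can be given for this gene.

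Rtn4rl1, a homologue of the Nogo receptor, was at 12.8 and 21.5 TPM in the control mice. In the SCI mice it ranged from 10.4 to 25.2 TPM, on both sides of the controls. The log2 fold changes of -0.08 (SE 0.295, edgeR adjusted p = 0.871) and -0.22 (SE 0.280, adjusted p = 0.566) were within the spread between mice. Rtn4rl2, the homologue that binds Mag, had 0 counts in both control mice, which allows up to 0.148 and 0.134 CPM. It had at most 7 counts in the SCI + Vehicle group, in 1 of 7 mice, and 0 to 27 counts in the SCI + Atorvastatin group, where 5 of 7 mice had a count. Its TPM was above 0 in 3 of 14 SCI mice, and listed at 0 in the mouse with 27 counts, and it was not tested.

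The co-receptor Lingo1, a leucine-rich repeat protein of neurons and oligodendrocytes, fell in SCI + Atorvastatin vs. Uninjured Control. Its CPM was 65.2 and 56.9 in the control mice. It was 27.8, 39.4 and 55.4 (lowest, median and highest) in the SCI + Vehicle group and 27.0, 36.4 and 46.6 in the SCI + Atorvastatin group. All 14 SCI mice were below both control mice on this scale, without overlap, and 6 of 7 in each group were below both in TPM. The log2 fold change was -0.75 (SE 0.208, edgeR adjusted p = 0.0168, 95% interval -1.21 to -0.28) with atorvastatin and -0.65 (SE 0.239, adjusted p = 0.0646, 95% interval -1.18 to -0.12) with vehicle. That one comparison passed and the other did not is not a test of the treatments against each other.

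Lingo1 kept its negative sign in every alternative run in both comparisons. In SCI + Atorvastatin vs. Uninjured Control its adjusted p ranged over the alternatives from 0.00324 (DESeq2) to 0.787 (replicate number as a block). With any 1 mouse left out its edgeR log2 fold change was -0.85 to -0.64. Lingo1 was not called by limma on log2(TPM + 1) (-0.49, adjusted p = 0.123) or by limma voom (adjusted p = 0.480). Of all 16091 genes these called 6316 and 146 in that comparison. In SCI + Vehicle vs. Uninjured Control Lingo1 was called in DESeq2 (adjusted p = 0.0321), in edgeR with DESeq2 size factors (adjusted p = 0.0463) and in the fit of all 3 groups (adjusted p = 0.0335). It was also called in edgeR without SCI + Vehicle replicate 7 (-0.75, adjusted p = 0.0245). Without Uninjured Control replicate 2 its log2 fold change was -0.74, and without replicate 1 it was -0.54. Limma on log2(TPM + 1) (-0.43, adjusted p = 0.214) and limma voom (adjusted p = 0.586) did not call Lingo1 in this comparison. Neither did the edgeR fit with the replicate number as a block (adjusted p = 0.494). Neuron markers moved in the same direction: 6 of 9 fell with vehicle and 8 of 9 with atorvastatin, and their summed level was 11047 and 13496 TPM in the control mice, 7397 to 11098 TPM with vehicle and 6743 to 9489 TPM with atorvastatin. The part of neuron content in the Lingo1 and Omg values was not tested.

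Ngfr, the p75 neurotrophin receptor that Schwann cells and sensory neurons are known for, was above both control mice in all 14 SCI mice. Control replicate 1 had 48 counts and control replicate 2 had 0, and the TPM is listed at 0 in both. It had 78, 138 and 630 counts (lowest, median and highest) in the SCI + Vehicle group and 131, 242 and 295 in the SCI + Atorvastatin group. The log2 fold changes of 3.06 (SE 1.39, edgeR adjusted p = 0.122) and 2.93 (SE 1.21, adjusted p = 0.0810) did not pass the limit. Ngfr averaged 220 counts over the SCI mice. Of genes that averaged 200 to 500 counts there, control replicate 1 lacked any count for 13.9% and control replicate 2 for 17.6%. The part of such missing counts in the Ngfr fold changes, under any tool, was not tested. Ngfr was called in both comparisons in DESeq2 (adjusted p = 0.0201 and 0.00776) and in the fit of all 3 groups (adjusted p = 0.0248 and 0.0286). It was also called in limma on log2(TPM + 1) (adjusted p = 0.00394 and 0.000104). On that scale both control mice are at 0, without spread, although replicate 1 had 48 counts. Without control replicate 2 the edgeR log2 fold changes were 2.06 with vehicle and 1.92 with atorvastatin, and without replicate 1 the remaining control is at 0. The lowest SCI + Vehicle value, 4.21 CPM, was above the higher control value, 2.41 CPM.

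The highest Ngfr value, 630 counts or 19.8 TPM, was in SCI + Vehicle replicate 3. The same mouse had the highest summed level of the 6 dorsal root ganglion markers (27.3 TPM, against 0.78 to 8.82 TPM in the other SCI mice), and all 6 had a count of 0 in both control mice. The 6 Schwann cell markers went the other way from Ngfr, with sums of 435 and 281 TPM in the control mice, 28.7 to 210 TPM with vehicle and 138 to 272 TPM with atorvastatin, and 0 and 2 of the 6 were called lower. The part of either cell type in the Ngfr values was not tested.

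Tnfrsf19, a death-domain-free receptor of the TNF family that can take the place of Ngfr in the complex, was at 32.8 and 15.2 TPM in the control mice. In the SCI + Vehicle group the lowest, median and highest values were 22.3, 31.3 and 33.1 TPM, and in the SCI + Atorvastatin group 25.5, 28.5 and 31.1 TPM. All but 1 of the SCI mice were between the controls in TPM, and all of them were in CPM. The log2 fold changes were 0.25 (SE 0.281, edgeR adjusted p = 0.543) and 0.26 (SE 0.277, adjusted p = 0.487). Without Uninjured Control replicate 1 they were 1.07 and 1.09, and without replicate 2 they were -0.27 and -0.26, so the direction rested on the choice of control mouse.

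**Figure D2:**
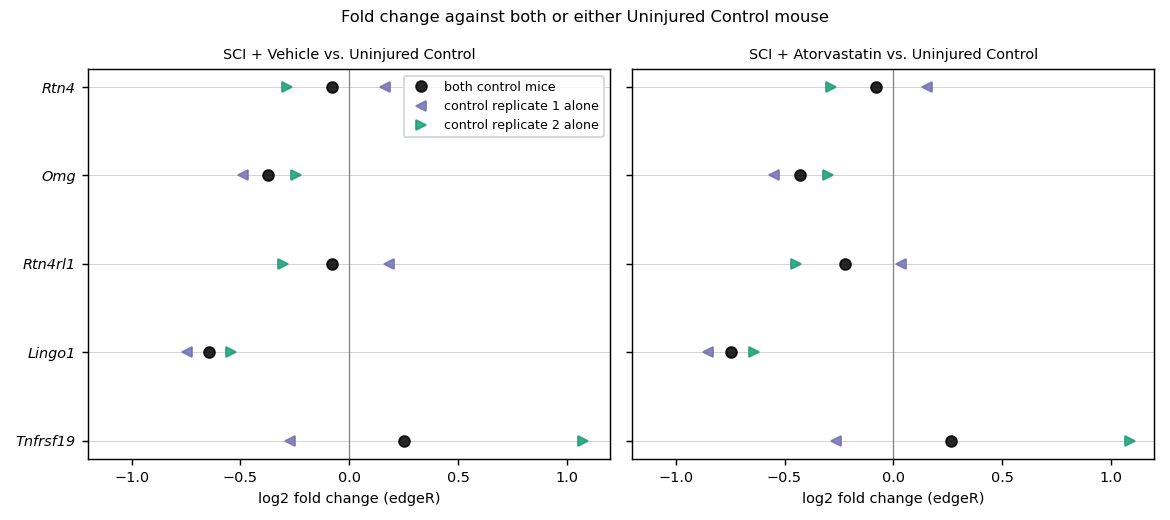
The log2 fold change from edgeR (horizontal axis) of the 5 genes with counts in both Uninjured Control mice, against both mice (circles) and against replicate 1 or replicate 2 by itself (triangles), for SCI + Vehicle (left) and SCI + Atorvastatin (right). Omg and Lingo1 stay below 0 with either control mouse, while Rtn4, Rtn4rl1 and Tnfrsf19 lie on both sides of 0.

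Between the treatments, 0 of the 7 genes tested differed. In SCI + Atorvastatin vs. SCI + Vehicle the limit was an unadjusted p below 0.001 with the same fold change, which 0.106% of all genes passed in edgeR. Among the 7 genes, 0 had an unadjusted p below 0.05, against 7.03% of all genes. DESeq2, limma on log2(TPM + 1) and limma voom called 0 as well, where they called 37, 20 and 8 of all 16091 genes. The exact two-sided permutation test on log2(TPM + 1) over 3432 assignments of the 14 mice gave p from 0.608 to 1 for the 8 genes. All 7 log2 fold changes were below 0, from -0.17 to -0.01, with a median of -0.12 beside -0.0014 for all genes.

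How large a difference these mice could hide varied by gene. For Rtn4 the log2 fold change was -0.02 (SE 0.0656, edgeR adjusted p = 0.965) with a 95% interval of -0.16 to 0.11, and for Tnfrsf19 it was -0.01 with an interval of -0.19 to 0.17. Both intervals lie inside the fold change limit of 0.322 on either side. For Lingo1 the value was -0.12 with an interval of -0.43 to 0.19, and for Ngfr -0.15 with an interval of -0.85 to 0.55. The intervals of Omg (-0.32 to 0.16), Rtn4r (-0.78 to 0.53) and Rtn4rl1 (-0.50 to 0.17) also reached past the limit, so for these 5 genes a difference of that size could not be told from none. The Ngfr value rested on SCI + Vehicle replicate 3, without which it was 0.31 (edgeR), and on the log2(TPM + 1) scale it was 0.02. Its median was higher in the SCI + Atorvastatin group (242 against 138 counts) and its mean lower (211 ± 65.3 against 230 ± 192 counts, SD, n = 7).

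**Figure D3:**
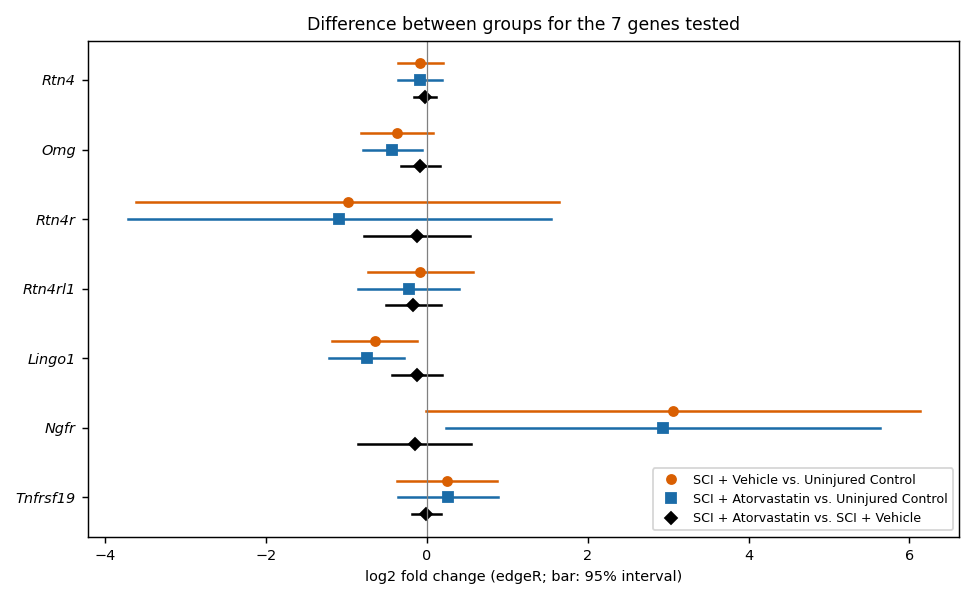
The log2 fold change from edgeR (points) with its 95% interval (bars) of the 7 genes tested, in SCI + Vehicle vs. Uninjured Control, SCI + Atorvastatin vs. Uninjured Control and SCI + Atorvastatin vs. SCI + Vehicle. The intervals between treatments all include 0 and are narrowest for Rtn4, those against the Uninjured Control group are widest for Rtn4r and Ngfr, and those of Lingo1 against this group lie below 0.

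Over the 14 SCI mice, no pair of the 8 genes passed a test of correlation after adjustment. Values were log2(TPM + 1), centred in each treatment group, and 28 pairs were tested by permutation. The highest correlation was that of Rtn4 with Lingo1 (Pearson r = 0.71, permutation p = 0.00676, adjusted p = 0.189; Spearman rho = 0.76, permutation p = 0.00390, adjusted p = 0.109). It was 0.73 without the 2 mice farthest from the median of Rtn4, 0.59 within the SCI + Atorvastatin group and 0.82 within the SCI + Vehicle group. Of 48 correlations of the genes with summed cell type markers 0 passed (lowest adjusted p = 0.0870). Lingo1 with neuron markers had r = 0.73 (rho = 0.64) and r = 0.66 without the 2 mice farthest from the median, and Omg with neuron markers r = 0.71 (rho = 0.56) and then 0.51. Omg with oligodendrocyte markers (r = 0.76, rho = 0.58) and Tnfrsf19 with oligodendrocyte precursor markers (r = 0.87, rho = 0.83) rested on such mice, with r = 0.29 and 0.26 without them.

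**Figure D4:**
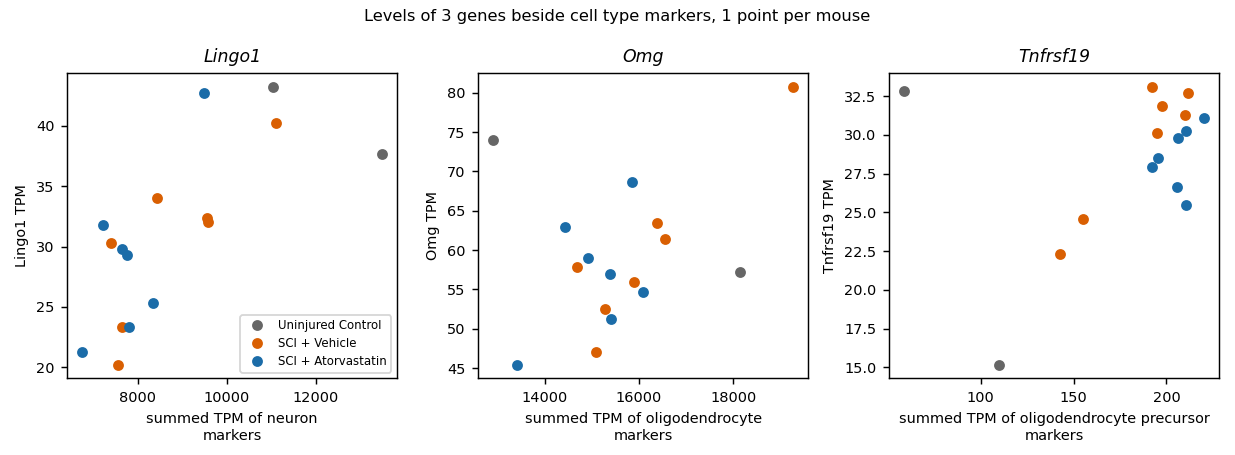
TPM of Lingo1, Omg and Tnfrsf19 (vertical axes, not from 0) against the summed TPM of 9 neuron, 9 oligodendrocyte and 6 oligodendrocyte precursor markers, with 1 point per mouse coloured by group. The highest neuron marker sum (13496 TPM) and the lowest precursor marker sums (58.8 and 110 TPM) are in control mice, and in the right panel 2 SCI + Vehicle mice with precursor sums under those of all other SCI mice also have the lowest Tnfrsf19 among the SCI mice.

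The genes whose values over the 14 SCI mice were most like those of each member, among 14986 genes by Pearson r on the same centred scale, are given as a description. They were Fscn1, Syn2 and Atp9a for Rtn4 (r = 0.93 to 0.94), Acat2, Zfp944 and Vamp1 for Omg (0.87 to 0.88), and Csdc2, Syt2 and Dnm1 for Lingo1 (0.90 to 0.91). For the receptors they were Fam57a, Miip and Rnf19b for Rtn4r (0.77 to 0.85) and B4galt6, Elmo1 and Clptm1 for Rtn4rl1 (0.87 to 0.92). For the co-receptors of the TNF receptor family they were Slc19a1, Pmfbp1 and Cd248 for Ngfr (0.80 to 0.83) and Slc15a4 and Evi5 for Tnfrsf19 (0.95 and 0.93). Of the genes named, Syn2, Vamp1, Syt2 and Dnm1 encode proteins of synaptic vesicles and their recycling, and the others were not classed. The share of such genes among the 14986 compared was not taken, so no shared theme is drawn from the genes named. These correlations were not repeated without the mice farthest from the median.

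Genes related to the complex were taken from 5 lists. Of 16 other ligands and binding partners of the Nogo receptor, 0 were called higher and 2 lower in SCI + Vehicle vs. Uninjured Control, beside 19.8% and 9.55% of all genes. In SCI + Atorvastatin vs. Uninjured Control it was 1 higher and 4 lower, beside 24.9% and 14% of all genes, and the list's median log2 fold changes were -0.05 and -0.03. Olfm1, a secreted olfactomedin that binds the Nogo receptor, fell in both, with log2 fold changes of -0.73 (SE 0.210, edgeR adjusted p = 0.0249) with vehicle and -0.71 (SE 0.113, adjusted p = 0.000832) with atorvastatin. Adgrb1, an adhesion receptor that binds Nogo receptors, fell in both, with -0.61 (SE 0.173, adjusted p = 0.0225) and -0.75 (SE 0.124, adjusted p = 0.000961). In the control mice Olfm1 was at 477.5 and 429.1 TPM and Adgrb1 at 72.9 and 77.5 TPM, above the SCI group means of 262 to 268 TPM and 46.2 to 52.1 TPM. Mag, the other myelin ligand, was not called, with log2 fold changes of -0.01 and -0.05 and levels of 407 ± 35.0 TPM with atorvastatin, 419 ± 44.4 TPM with vehicle and 281 and 429 TPM in the control mice. In the SCI groups the mean TPM of Mag was thus above that of Rtn4, and that of Omg was far below both.

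Of 6 paralogs of Rtn4 and Lingo1, 1 was called higher and 2 lower with vehicle and 1 higher and 4 lower with atorvastatin, with medians of -0.49 and -0.53, beside 19.8% higher and 9.55% lower of all genes with vehicle and 24.9% and 14% with atorvastatin. Rtn2, a reticulon that shapes the endoplasmic reticulum, fell in both, with log2 fold changes of -1.32 (SE 0.257, edgeR adjusted p = 0.00354) with vehicle and -1.43 (SE 0.232, adjusted p = 0.000891), and Rtn1, the neuronal reticulon, did so with -0.68 (SE 0.166, adjusted p = 0.0111) and -0.87 (SE 0.122, adjusted p = 0.000383). Lingo2 rose in both, with 1.33 (SE 0.342, adjusted p = 0.0144) and 1.303 (SE 0.280, adjusted p = 0.00441). Lingo1 and Lingo2 thus had opposite signs after injury: Lingo2 was at 6.29 and 4.57 TPM in the control mice, 11.9 ± 3.56 TPM with vehicle and 10.6 ± 2.13 TPM with atorvastatin. Rtn1 was at 510.0 and 506.8 TPM and Rtn2 at 132.4 and 81.4 TPM in the control mice. Both moved with the neuron markers given above, and the part of neuron content in them was not tested.

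Of 17 genes of the RhoA and ROCK pathway, 2 were called higher and 2 lower with vehicle and 2 higher and 3 lower with atorvastatin, with medians of 0.08 and 0.14. Of all genes 19.8% were called higher and 9.55% lower with vehicle and 24.9% and 14% with atorvastatin, and the list's shares were near these for lower genes and below them for higher genes. The kinase gene Rock1 rose in both, with log2 fold changes of 0.77 (SE 0.192, edgeR adjusted p = 0.0130) with vehicle and 0.89 (SE 0.169, adjusted p = 0.00228), and Ssh2, a phosphatase that activates cofilin, with 0.84 (SE 0.154, adjusted p = 0.00273) and 1.00 (SE 0.101, adjusted p = 6.87e-05). Limk1, the kinase that inactivates cofilin, fell in both, with -0.79 (SE 0.231, adjusted p = 0.0272) and -0.91 (SE 0.127, adjusted p = 0.000389), and Cfl1, which encodes cofilin, did so with -0.36 (SE 0.122, adjusted p = 0.0464) and -0.44 (SE 0.0861, adjusted p = 0.00261). In the control mice Rock1 was at 19.51 and 25.96 TPM, Ssh2 at 15.9 and 15.6 TPM, Limk1 at 211.8 and 266.5 TPM and Cfl1 at 1274 and 1263 TPM. Rhoa itself was not called, with 0.03 and 0.14, nor was Rock2, with 0.12 and 0.22.

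Of 11 ligands, co-receptors and partners of Ngfr that passed the filter, 2 were called higher and 1 lower with vehicle and 3 higher and 2 lower with atorvastatin, with medians of -0.14 and -0.19. These shares were near those of all genes (19.8% and 9.55%, then 24.9% and 14%). Traf6, an adaptor that binds the cytoplasmic part of Ngfr, rose in both, with log2 fold changes of 1.38 (SE 0.361, edgeR adjusted p = 0.0157) with vehicle and 1.45 (SE 0.259, adjusted p = 0.00159), and Ngfrap1, a gene for a protein that binds its death domain, fell in both, with -0.99 (SE 0.182, adjusted p = 0.00262) and -1.17 (SE 0.117, adjusted p = 6.42e-05). In the control mice Traf6 was at 3.04 and 3.84 TPM and Ngfrap1 at 824.4 and 844.5 TPM. Nradd, a relative of Ngfr, was called higher in both and had 0 counts in both control mice, 0 to 71 counts with vehicle and 32 to 100 with atorvastatin. No fold is given for it, since many genes with more counts in the SCI mice were also at 0 in the control libraries. Of 3 genes at the Omg locus 0 were called in edgeR in either comparison, with 0 at an unadjusted p below 0.05.

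**Figure D5:**
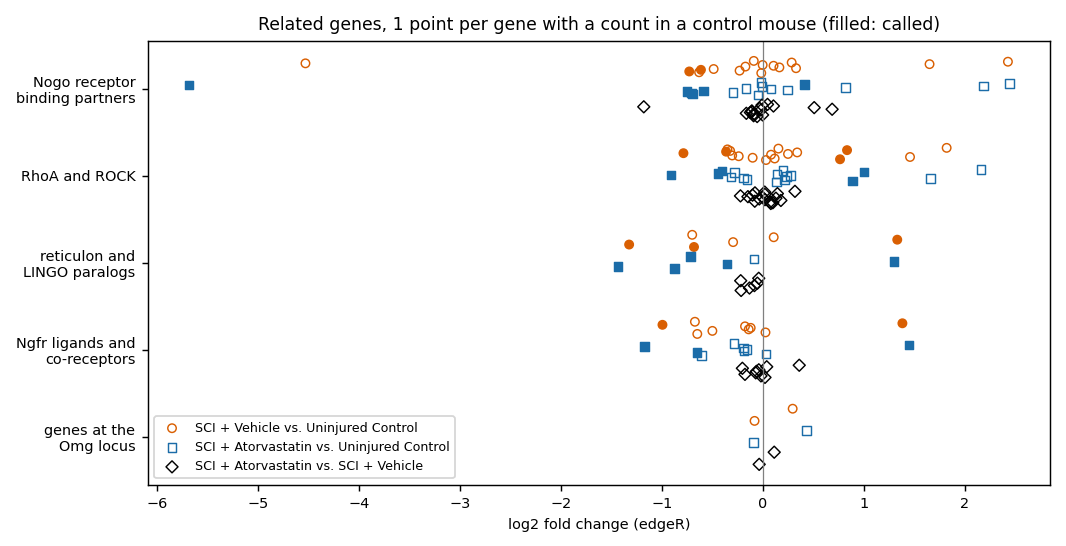
The log2 fold change from edgeR (horizontal axis) of the related genes in 5 lists, with 1 point per gene that had a count in a control mouse, filled where the gene was called, in the 3 comparisons. In SCI + Atorvastatin vs. Uninjured Control called genes lie on both sides of 0 in 4 of the lists, and no point is filled between the treatments.

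Between the treatments edgeR called 0 of the 53 genes tested in these 5 lists, and 4 had an unadjusted p below 0.05, a share near the 7.03% of all genes. S1pr2, a sphingosine-1-phosphate receptor that also binds Nogo, was at 7.27 ± 2.87 TPM with atorvastatin and 4.64 ± 0.948 TPM with vehicle (log2 fold change 0.69, SE 0.260, edgeR adjusted p = 0.680). The others had log2 fold changes of -0.22 (Limk2, a paralog of Limk1), -0.21 (Rtn1) and -0.18 (Sorcs2, a sortilin-family partner of Ngfr), with edgeR adjusted p of 0.680, 0.680 and 0.703. The fibroblast markers were also higher with atorvastatin at an unadjusted p below 0.05 (5 of 5, median log2 fold change 1.04, summed level 427 to 1116 TPM against 59.1 to 668 TPM), and their part in the S1pr2 value was not tested.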

How the data were processed

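Spinal cord RNA of 16 mice was sequenced. The authors trimmed reads with Trimmomatic 0.38, checked them with FastQC 0.12.1, aligned them with STAR 2.5.4b to mm10 and quantified genes with RSEM 1.3.1. They deposited whole-number counts per gene, which carry no normalization, and TPM, normalized for length and depth. The step that made the counts is not given in the sources used here, and some genes have counts with a TPM of 0. Conditions were taken from the sample labels, which give another age of the Uninjured Control mice and another day of isolation than the paper. Whether the replicates share a litter or a day is not stated.

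Counts were tested pair by pair with the quasi-likelihood test of edgeR 4.0.16 after TMM normalization (R 4.3.3; p adjusted by Benjamini-Hochberg), over all genes whose mean TPM passed 1 in any condition. The methods were tested on simulated data. Alternatives were DESeq2 1.42.0, edgeR with its size factors, a fit of all 3 groups, gene filters that were looser or stricter, limma 3.58.1 on log2(TPM + 1) and on log2(TPM + 0.1), limma voom with group weights, the replicate number as a block, and each mouse left out in turn. Where 1 Uninjured Control mouse was left, it was assumed to vary like the SCI mice. Correlations used 100000 permutations in scipy 1.17.1. Upper limits on counts of 0 are 3 counts of the library and cover counting error only.

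The members, lists and alternatives were chosen with earlier results of these data known. Named genes are the 8 members, up to 4 called genes per direction and list with the smallest p in SCI + Vehicle vs. Uninjured Control, listed genes with an unadjusted p below 0.05 between treatments, and the 3 genes most like each member. The result of 1 such gene is not reported here. Mag, Rhoa, Rock2, Nf1 and Eml6 were named after their values were seen. Lists of endothelium, astrocyte, microglia and ependyma markers served as checks: with vehicle and atorvastatin, 0 and 1 of 5 endothelium, 4 and 4 of 7 astrocyte, 5 and 6 of 8 microglia or macrophage, 1 and 2 of 5 ependyma and 4 and 5 of 6 oligodendrocyte precursor markers were called higher, and of 9 oligodendrocyte markers 1 and 1 higher and 1 and 3 lower. Protein sequences, behaviour and histology were not analysed here. Figures were drawn with matplotlib 3.10.9.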

Additional observations from a re-analysis of the deposited data

Results flagged for a closer look

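In 16 sets of 7 values (the 8 genes in each SCI group), 3 values stood farther from the other mice of their group than Dixon's test allows. Chance gives about 1 in 20 where values vary, which does not hold for Rtn4rl2, with nearly all values at 0. Ngfr was at 19.77 TPM in SCI + Vehicle replicate 3, with 3.36 to 8.95 TPM in the other mice of the group. Rtn4rl2 was at 0.77 TPM in SCI + Vehicle replicate 1 and at 0.36 TPM in SCI + Atorvastatin replicate 2, where the other mice were at 0 but for 1 at 0.1 TPM, and both values rest on few counts (7 and 3), while SCI + Atorvastatin replicate 4 had 27 counts at a TPM of 0.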

How the results depend on the processing

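Between the treatments 0 of the genes were called under every alternative run. In SCI + Vehicle vs. Uninjured Control, where edgeR called 0, the count was 2 in DESeq2 and 2 in the fit of all 3 groups. It was 1 with DESeq2 size factors and 1 in limma on log2(TPM + 1) and on log2(TPM + 0.1). Of all 16091 genes these called 6000, 6586, 4852, 4452 and 4921, and edgeR called 4726. In SCI + Atorvastatin vs. Uninjured Control, where edgeR called 1, the count was 3 in DESeq2, 2 with its size factors, 2 in the fit of all 3 groups and 0 in limma voom. Of all 16091 genes these called 7207, 6308, 7126 and 146, and edgeR called 6260. The cause of these differences was not tested. Of the alternatives for single genes, 370 kept direction and side of the limit, 25 passed it newly, 4 lost it and 33 turned in sign.

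Against the Uninjured Control group (vehicle, then atorvastatin), Rtn4 turned in limma on both TPM scales (0.14 and 0.14) and spanned -0.29 to 0.16 and -0.29 to 0.15 with 1 mouse left out. Rtn4r turned in limma on log2(TPM + 1) (0.42 and 0.40), on log2(TPM + 0.1) (1.87 and 1.84) and in voom (2.52 and 2.42), and spanned -1.98 to 9.69 and -2.09 to 9.62, where the highest values are against a control at 0 counts, depend on the prior count and are no bounds. Rtn4rl1 spanned -0.31 to 0.18 and -0.45 to 0.035, and Tnfrsf19 -0.27 to 1.07 and -0.26 to 1.09. Between the treatments Ngfr turned in limma (0.023 and 0.044), voom (0.042) and the permutation test (0.023), and spanned -0.29 to 0.31. With 1 mouse left out, Rtn4 spanned -0.047 to 0.0062, Omg -0.13 to 0.020, Rtn4r -0.28 to 0.0078 and Tnfrsf19 -0.056 to 0.015.

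The replicate number does not pair the mice: same-numbered SCI mice had correlations of their deviations from -0.150 to 0.0871. With the replicate number as a block, 0 of the genes were called in each comparison, against 0, 1 and 0 without it, Rtn4r was at 2.19 and 2.39 against the Uninjured Control group and Ngfr at 0.083 between the treatments. The block leaves few degrees of freedom against 2 control mice, where 16 and 0 of all genes were called. Of the 2 control mice, 1 has a count of 0 for Rtn4r and the other for Ngfr. Their libraries held 20211276 and 22368736 counts, within the range of the SCI libraries (14823292 to 25579826). Whether more depth would change the values of these genes was not tested.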
